A study of Rattus norvegicus with 20 samples.

Results

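Tamoxifen was compared with its vehicle in the mesenteric arteries of ovariectomised rats. The comparison used every array of these groups, 4 titled as tamoxifen and 4 titled as control, which are 8 of the 20 arrays and 2 of the 6 groups of the study. The question the study set was how estrogens and selective estrogen receptor modulators alter gene expression in this vascular bed. All animals were female Sprague Dawley rats that had been ovariectomised at 4 weeks of age, rested for 2 weeks, gavaged once a day for 3 weeks and killed at 9 weeks of age. Tamoxifen was given at 3 mg/kg in 20% 2-hydroxypropyl-β-cyclodextrin, and the vehicle rats received that cyclodextrin solution without drug. A further 3 rats received raloxifene at the same 3 mg/kg and served as a comparison at a matched dose and time. Each array held RNA from 1 rat, so the replicates are animals. The design text speaks of 3 arrays completed per treatment, whereas 4 vehicle and 4 tamoxifen arrays were deposited, and all were used. Ovaries had been removed from the vehicle rats too, so neither group had a cycling ovarian supply of estrogen.

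Tamoxifen is a triphenylethylene drug that binds estrogen receptors and acts as an agonist in some tissues and as an antagonist in others. It is used against breast cancer, and it also binds the sterol isomerase Ebp, part of the microsomal antiestrogen binding site. Mesenteric arteries are small muscular arteries whose wall holds smooth muscle, endothelium, matrix-producing fibroblasts and nerve endings, and estrogen receptors occur in the muscle and the endothelium.

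The arrays were CodeLink single-colour slides, on which each probe gives a background-subtracted intensity, deposited on a scale where the median probe of an array lies near 1. Intensities are given on that scale, and differences are on the log2 scale after an offset of 0.103, which understates the change of dim probes. Array medians ran from 1.0007 to 1.0612. They fell into 2 sets, the first from 1.0408 up and the second up to 1.015. The sets also differed at 384 regularly spaced probes without a gene symbol. Those probes were located by their difference between the sets, so they are no separate evidence for the split. Vehicle array 1 belonged to the first set, whereas vehicle arrays 2 to 4 and all tamoxifen and raloxifene arrays belonged to the second, so changes are also given against vehicle arrays 2 to 4. The mean correlation of an array with the other arrays was 0.958 to 0.969 for the vehicle and tamoxifen arrays and 0.889 for raloxifene array 3. The tamoxifen and vehicle means do not include raloxifene array 3. It enters their comparison through the shared estimate of the spread, the offset, the filter on dim probes and the choice of each gene's brightest probe.

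After 3 weeks of tamoxifen, few genes differed from vehicle beyond the spread between rats, and most of those were lower. The highest-rising gene was Cyp2e1, and the 33 genes that fell included 8 on a cell cycle list and 4 on an extracellular matrix list. Of 24562 probes tested, 55 passed an adjusted p of 0.05 in limma's moderated test over all 20 arrays (0.224%), 9 higher and 46 lower. Of the 13324 tested probes with 1 gene symbol, 40 passed (0.3%): 5 higher (0.0375%) and 35 lower (0.263%). They stand for 37 genes, 4 higher and 33 lower. At all 55 probes the 4 tamoxifen values lay outside the range of the 4 vehicle values. Against vehicle arrays 2 to 4 alone, the changes of the 55 were 0.838 to 1.14 times as large, and 26 probes passed (0.106%), 25 of them among the 55. Of these 26, 21 had 1 symbol (0.158%), 5 higher (0.0375%) and 16 lower (0.12%). The number that passed depended on single arrays. It was 26 without vehicle array 1, 20 without vehicle array 2, 18 without tamoxifen array 1, 19 without tamoxifen array 2 and 34 without tamoxifen array 4. It was 120 without tamoxifen array 3 and 166 without raloxifene array 3, a set that held all 55. Leaving out arrays could not reverse the direction of any of the 55, since their groups did not overlap, so nothing is read from that.

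**Figure D1:**
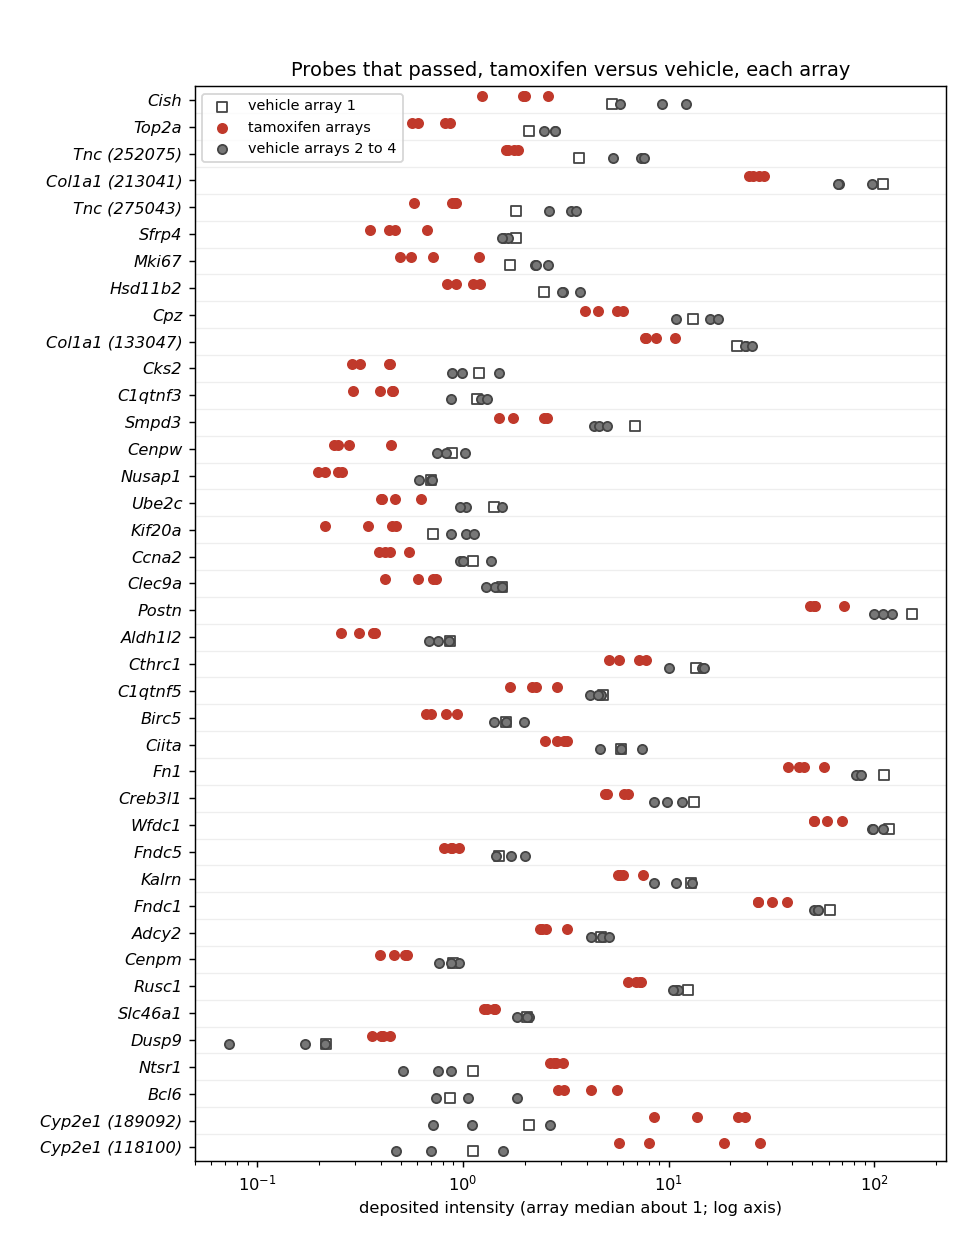
Deposited intensity (log axis) of the 40 probes with 1 symbol that passed, ordered by their change, with one point for each of the 4 vehicle arrays (grey; open square for array 1) and the 4 tamoxifen arrays (red). The 5 probes at the bottom were higher with tamoxifen and the other 35 lower, with no overlap between the groups. Numbers in brackets are probe names, for genes with more than 1 probe that passed.

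Cyp2e1, a cytochrome P450 that oxidises ethanol, ketones and other small molecules in liver and fat, rose most. Its probe 189092 read 2.10, 2.66, 0.714 and 1.11 on the vehicle arrays and 21.7, 23.6, 13.7 and 8.54 on the tamoxifen arrays. All tamoxifen rats were well above all vehicle rats, although the tamoxifen rats also differed among themselves. The change was 3.33 ± 0.50 (log2, SE, n = 4 against 4; 10.1-fold; limma adjusted p = 0.00502). A second probe, 118100, rose by 3.68 ± 0.55. Both probes passed against vehicle arrays 2 to 4 and under all 23 alternative settings. Cyp2e1 is abundant in hepatocytes and adipocytes, so their markers were read beside it. The summed intensity of 12 adipocyte markers was 851 to 1200 on vehicle and 822 to 1160 on tamoxifen arrays. That of 6 hepatocyte markers was 74.9 to 97.2 and 73.5 to 96.9. Both sums overlapped between the groups. Single markers did not all follow the sums: 10 of the 12 adipocyte markers had values above 0 (median 0.09), and 4 of the 6 hepatocyte markers. Over all tested genes, 4342 of 10191 had values above 0. Cidea, a lipid droplet protein of adipocytes, read 19.8 to 27.7 with vehicle and 28.2 to 39.0 with tamoxifen without passing (0.60 ± 0.18; limma adjusted p = 0.308). The part of these cells in the Cyp2e1 result was not tested. Most of the hepatocyte sum was transferrin (Tf), and the other named hepatocyte markers were dim: Serpina1 read 0.444 to 0.741 on vehicle and 0.689 to 0.892 on tamoxifen arrays.

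Ntsr1, a G protein-coupled receptor for the peptide neurotensin, read 1.12, 0.755, 0.875 and 0.514 with vehicle and 3.07, 2.79, 2.85 and 2.65 with tamoxifen. The tamoxifen values were tightly grouped, and the lowest of them was above every vehicle value. Its change was 1.72 ± 0.18 (3.31-fold; limma adjusted p = 0.000323). Bcl6, a transcriptional repressor best known from germinal-centre B cells, read 0.871, 1.06, 0.742 and 1.83 with vehicle and 2.89, 3.10, 4.21 and 5.60 with tamoxifen. It rose by 1.75 ± 0.26 (3.37-fold; adjusted p = 0.00502), while a second, brighter probe was at 0.92 ± 0.20 without passing (adjusted p = 0.0783). Dusp9, a phosphatase that inactivates MAP kinases, rose by 0.94 ± 0.18, from a dim 0.0731 to 0.217 with vehicle to 0.364 to 0.443 with tamoxifen. All 4 higher genes passed against vehicle arrays 2 to 4 as well. Counted with 1 probe per gene, 3 of 10191 genes were higher in either comparison (0.0294%).

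Part of the cell cycle genes fell. On a list of 33 tested cell cycle genes, 8 passed and all of them were lower, against 31 lower of 10191 tested genes with 1 probe each (0.304%). The list was chosen with earlier results of these data known, so these counts describe its members and test nothing. The 8 are Top2a, Nusap1, Cks2, Ccna2, Kif20a, Ube2c, Mki67 and Birc5. The median change of the 33 was -0.26, beside -0.05 over all tested genes, and 11 of the 33 did not overlap between groups in the lower direction (5.79% of all tested genes). The count was 7 against vehicle arrays 2 to 4, where 0.137% of all tested genes were lower. It was 3 without vehicle array 2, without tamoxifen array 1 or without tamoxifen array 2, and 5 without vehicle array 3 or without tamoxifen array 4.

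Top2a, the topoisomerase that disentangles DNA before mitosis, read 2.11, 2.82, 2.82 and 2.47 with vehicle and 0.564, 0.608, 0.863 and 0.816 with tamoxifen. Every vehicle rat was far above every tamoxifen rat. It fell by 1.71 ± 0.19 on the log2 scale (3.27-fold lower; limma adjusted p = 0.000323). Mki67, the proliferation antigen Ki-67, read 1.70, 2.25, 2.61 and 2.27 with vehicle and 0.561, 0.494, 1.20 and 0.719 with tamoxifen. Tamoxifen rat 3 was the nearest to the vehicle rats, and the change was -1.50 ± 0.28. Cks2, a small partner of the cyclin-dependent kinases, read 1.20, 1.49, 0.995 and 0.881 with vehicle and 0.291, 0.317, 0.436 and 0.445 with tamoxifen (-1.38 ± 0.21). Nusap1, which bundles spindle microtubules, fell by 1.23 ± 0.19, and Ccna2, cyclin A2, fell by 1.13 ± 0.19. The remaining members that passed were Ube2c, a ubiquitin-conjugating enzyme of the anaphase-promoting complex (-1.21 ± 0.22), the mitotic kinesin Kif20a (-1.16 ± 0.20) and Birc5, survivin (-0.99 ± 0.19). Off the list, the kinetochore genes Cenpw (-1.28 ± 0.16) and Cenpm (-0.75 ± 0.14) also fell. A second, dimmer Cenpw probe was at -0.26 ± 0.25 and did not pass. Ube2c, Birc5 and Cenpm did not pass against vehicle arrays 2 to 4 (adjusted p = 0.0935, 0.0848 and 0.0848), where Pbk did. Ube2c, Kif20a, Birc5 and Cenpm were named after their values were seen.

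Other members of the list did not pass. Pbk, a mitotic kinase, was at -1.16 ± 0.28 (adjusted p = 0.123) and passed against vehicle arrays 2 to 4. Cdk1 was at -0.82 ± 0.32 and Mcm5 of the replicative helicase at -0.78 ± 0.28. Pcna, the replication clamp, was at 0.02 ± 0.30, and Mcm2, Mcm4, Mcm6 and Mcm7 lay between 0.04 and 0.31, with a dim second probe of Mcm6 near 0. All of the cell cycle probes that passed were dim: none was among the brightest 40% of probes, and with the lowest 60% left out, 10 members had a value and 0 passed. RNA came from whole dissected arteries, so fewer cells of a type and less RNA per cell cannot be told apart. Lymphocyte markers summed to 11.5 to 29.9 over 9 genes on vehicle arrays and 11.3 to 13.2 on tamoxifen arrays. Their part in the cell cycle result was not tested.

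The promoters of Top2a, Cks2 and Mki67 are shown as examples of cell cycle genes that fell. Of the 6 such genes with a window they hold the most CCAAT boxes, so they are not typical of the 6. Promoters of such genes commonly carry CCAAT boxes and a TTTGAA element, the cell cycle genes homology region. The windows are the 250 bases before the start site in the RefSeq promoter table (GRCr8), read 5′ to 3′ on the gene's strand. Capitals mark CCAAT and TTTGAA on either strand, where ATTGG and TTCAAA are the reverse complements. The Top2a window is chr10:84473094-84473343 (minus strand), the Cks2 window chr17:13727520-13727769 (minus strand) and the Mki67 window chr1:199952594-199952843 (minus strand).
Top2a: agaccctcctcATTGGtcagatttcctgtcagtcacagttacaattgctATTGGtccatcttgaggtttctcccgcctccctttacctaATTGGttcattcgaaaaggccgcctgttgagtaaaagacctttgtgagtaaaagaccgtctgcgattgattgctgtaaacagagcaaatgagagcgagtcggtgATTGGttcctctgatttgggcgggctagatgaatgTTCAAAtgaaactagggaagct
Cks2: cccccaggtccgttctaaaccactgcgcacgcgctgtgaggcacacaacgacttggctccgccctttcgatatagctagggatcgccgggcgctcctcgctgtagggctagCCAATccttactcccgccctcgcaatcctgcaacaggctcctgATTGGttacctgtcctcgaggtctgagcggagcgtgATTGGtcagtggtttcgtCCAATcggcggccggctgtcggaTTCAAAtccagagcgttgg
Mki67: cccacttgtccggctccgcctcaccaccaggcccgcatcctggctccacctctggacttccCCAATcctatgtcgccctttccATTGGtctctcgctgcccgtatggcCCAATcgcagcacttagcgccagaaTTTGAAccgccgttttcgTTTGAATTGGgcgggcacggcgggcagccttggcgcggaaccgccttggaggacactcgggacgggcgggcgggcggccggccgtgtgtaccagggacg
Each of these windows holds 4 CCAAT boxes, beside 3 for Kif20a, 2 for Nusap1 and 1 for Birc5. Top2a and Cks2 have 1 TTTGAA each, 22 and 19 bases before the start, and Mki67 has 2, of which the one at 99 bases overlaps the CCAAT box at 94 bases. Of the 8 genes that fell, 6 had a window in the table, and 6 of 6 held CCAAT and 4 of 6 held TTTGAA. Among all 27 tested list members with a window, 22 (81.5%) held CCAAT and 11 (40.7%) held TTTGAA. Over all 27457 promoters of this length the shares were 34.3% and 16%. A match describes the letters of the window and is not a binding site.

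Genes of the extracellular matrix lay mostly below 0. Of 45 tested matrix genes, 4 passed, all lower (Col1a1, Tnc, Postn and Fn1), beside 31 of all 10191 tested genes (0.304%). This list, too, was chosen with earlier results of these data known, so the counts are descriptive. Values were below 0 for 39 of the 45 and for 5849 of the 10191. The median change was -0.43, and 13 of the 45 lay below the vehicle range without overlap, as did 590 of the 10191 (5.79%). The median was -0.31 against vehicle arrays 2 to 4, with 2 members passing, and -0.26 after quantile normalisation, with 3. The count was 1 without vehicle array 2 or without tamoxifen array 1, 2 or 4, and 7 without raloxifene array 3. The shift of all tested genes was -0.05.

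Col1a1, the main chain of type I collagen, read 111, 97.5, 67.6 and 66.9 with vehicle on probe 213041 and 24.5, 25.8, 29.2 and 27.5 with tamoxifen. The tamoxifen rats were nearly alike and all well below the vehicle rats. It fell by 1.64 ± 0.24 (3.11-fold lower; limma adjusted p = 0.00471), and its probe 133047 fell by 1.43 ± 0.18. Both probes passed under all 23 alternative settings. Tnc, tenascin-C, a matrix glycoprotein of remodelling tissue, read 3.66, 5.36, 7.38 and 7.61 with vehicle on probe 252075 and 1.66, 1.61, 1.86 and 1.77 with tamoxifen. Vehicle array 1 was the lowest of its group, and the change was -1.68 ± 0.31, or -1.63 ± 0.22 on probe 275043. Postn, periostin, read 152, 122, 110 and 99.7 with vehicle and 51.6, 48.7, 71.2 and 51.0 with tamoxifen (-1.11 ± 0.20). Fn1, fibronectin, fell by 0.98 ± 0.17, from 81.5 to 111 with vehicle to 38.2 to 57.2 with tamoxifen. Postn and Fn1 did not pass against vehicle arrays 2 to 4 (adjusted p = 0.0894 and 0.0857).

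Other collagen and elastic fibre genes had values below 0 without passing. Col5a1 was at -0.87 ± 0.21, the elastin gene Eln at -0.73 ± 0.19, Col1a2 at -0.79 ± 0.25 and Col8a1 at -0.95 ± 0.27. Not all matrix genes were lower: decorin (Dcn) was at -0.05 ± 0.15 and the prolyl hydroxylase subunit P4ha1 at 0.62 ± 0.32. Of 19 matrix proteases and inhibitors, 1 passed. Cpz, a carboxypeptidase with a frizzled-like domain that binds Wnt proteins, read 13.2, 10.8, 15.9 and 17.4 with vehicle and 4.55, 3.93, 6.02 and 5.62 with tamoxifen. It fell by 1.48 ± 0.17 (limma adjusted p = 0.00044) and passed under all 23 alternative settings. The gelatinase Mmp2 was at -0.70 ± 0.16 (adjusted p = 0.112) on its brightest probe and at -0.46 ± 0.21 and 0.22 ± 0.15 on others, and Bmp1, which trims procollagen, at -0.54 ± 0.15.

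Of 33 genes of TGF-beta, BMP and Wnt signalling, 1 passed: Sfrp4, a secreted Wnt antagonist, read 1.82, 1.59, 1.66 and 1.54 with vehicle and 0.468, 0.353, 0.436 and 0.673 with tamoxifen. It fell by 1.60 ± 0.31 (limma adjusted p = 0.0354), but not against vehicle arrays 2 to 4 (adjusted p = 0.117). A pair of secreted C1q-domain proteins were also lower, C1qtnf3 (-1.31 ± 0.24) and C1qtnf5, which went from 4.17 to 4.78 with vehicle to 1.70 to 2.88 with tamoxifen. Neither passed against vehicle arrays 2 to 4 (adjusted p = 0.0836 and 0.0512). Fibroblast markers, of which Dcn and Lum are also on the matrix list, summed to 580 to 769 over 10 genes on vehicle arrays and 555 to 648 on tamoxifen arrays. None of the 10 passed, and their median was -0.21 (-0.09 against vehicle arrays 2 to 4). The part of the fibroblast share in the matrix result was not tested.

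Cish fell most of all genes that passed. It encodes a SOCS-family protein that is induced by STAT5 and dampens cytokine and growth hormone signals. It read 5.33, 5.83, 12.1 and 9.27 with vehicle and 1.95, 2.59, 2.00 and 1.24 with tamoxifen. Vehicle rats differed among themselves, but the lowest of them was above every tamoxifen rat. The change was -1.96 ± 0.39 (3.90-fold lower; limma adjusted p = 0.0415). Its call was less secure than its size: the adjusted p was 0.0611 against vehicle arrays 2 to 4, and it passed under 11 of the 23 alternative settings. A pair of further Cish probes, both dimmer, did not pass, at 0.17 ± 0.26 and -0.38 ± 0.22. The window before the Cish start, chr8:116850719-116850968 (plus strand, GRCr8, RefSeq), is shown because it is rich in TTCNNNGAA, the motif read by STAT proteins, in capitals.
Cish: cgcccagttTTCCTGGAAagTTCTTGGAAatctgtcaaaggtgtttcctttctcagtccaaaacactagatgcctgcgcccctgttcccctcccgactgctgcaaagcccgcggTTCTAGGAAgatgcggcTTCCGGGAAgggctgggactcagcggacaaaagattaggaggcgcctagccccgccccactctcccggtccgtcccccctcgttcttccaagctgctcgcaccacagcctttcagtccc
The window holds 4 such motifs, 241, 230, 136 and 119 bases before the start. Any such motif occurs in 7.52% of all promoters and in 2 of the 20 lower genes with a window. It was in 0 of the 4 higher genes, Bcl6 among them.

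No other gene of the 17 tested in the growth hormone, STAT5 and IGF list passed. Of the 17, Cish included, 7 were lower and 0 higher with an unadjusted p under 0.05 in limma's test. The shares over all tested genes were 6.18% and 3.43%. Values were below 0 for 10 of the 17 and above 0 for 7. Igf1, insulin-like growth factor 1, was bright and read 150, 186, 190 and 178 with vehicle and 61.1, 50.1, 91.0 and 72.7 with tamoxifen. The groups did not overlap, but its pooled standard error over all 6 groups was wide (-1.38 ± 0.49; limma adjusted p = 0.399). Igfbp4 was at -0.76 ± 0.21, Igfbp5 at -0.52 ± 0.18, Stat5a at 0.20 ± 0.19 and the growth hormone receptor Ghr at -0.19 ± 0.40, or 0.72 ± 0.27 on its dimmer probe.

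Of 14 genes of glucocorticoid response and local steroid metabolism, 1 passed. Hsd11b2, which inactivates glucocorticoids, read 2.47, 3.07, 3.70 and 3.04 with vehicle and 0.926, 0.835, 1.22 and 1.12 with tamoxifen. It fell by 1.49 ± 0.22 (2.80-fold lower; limma adjusted p = 0.00471), also against vehicle arrays 2 to 4. The glucocorticoid-inducible chaperone Fkbp5 read 8.32 to 10.4 with vehicle and 16.4 to 28.2 with tamoxifen without passing (1.10 ± 0.27; adjusted p = 0.139).

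Among the immune genes, Clec9a, a receptor of cross-presenting dendritic cells, fell by 1.13 ± 0.19, from 1.29 to 1.55 with vehicle to 0.417 to 0.741 with tamoxifen. It was the 1 gene of 16 macrophage and dendritic cell markers that passed (limma adjusted p = 0.0148), and it did not pass against vehicle arrays 2 to 4 (adjusted p = 0.0512). Ciita, the master regulator of MHC class II genes, fell by 0.99 ± 0.16, and Cd74, the class II invariant chain, was at -0.61 ± 0.24 without passing. Cd163, a scavenger receptor of resident macrophages, lay the other way at 0.79 ± 0.21 (adjusted p = 0.194). Smpd3, a neutral sphingomyelinase, fell by 1.29 ± 0.24, but did not pass against vehicle arrays 2 to 4 (adjusted p = 0.0947).

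The other genes that passed were named after their values were seen, as were Ciita and C1qtnf5. Aldh1l2, a mitochondrial folate enzyme (-1.06 ± 0.20), and Slc46a1, a folate transporter (-0.53 ± 0.11), fell. So did the secreted Cthrc1 (-1.02 ± 0.19) and Wfdc1 (-0.88 ± 0.14) and the transcription factor Creb3l1, which promotes collagen gene expression (-0.92 ± 0.16). Fndc5, the irisin precursor, fell by 0.83 ± 0.16 and Fndc1 by 0.82 ± 0.14. Kalrn fell by 0.82 ± 0.16, the adenylyl cyclase Adcy2 by 0.81 ± 0.14 and the adaptor Rusc1 by 0.67 ± 0.13. Of these 10 genes, Adcy2 alone passed against vehicle arrays 2 to 4 (adjusted p = 0.0452). There the adjusted p of the others ran from 0.0512 for Wfdc1 and Fndc5 to 0.156 for Rusc1. Several of the genes that fell had other probes that did not pass. These lay at -0.83 ± 0.21 for Aldh1l2, at -0.54 ± 0.23 for Fndc1 and, for Smpd3, at -1.17 ± 0.61. The second Fn1 probe lay at -0.83 ± 0.84. Dimmer probes lay above 0 for Ciita (0.15 ± 0.29) and Kalrn (0.41 ± 0.34), and for Rusc1 the others lay at 0.42 ± 0.19 and -0.15 ± 0.20.

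**Figure D2:**
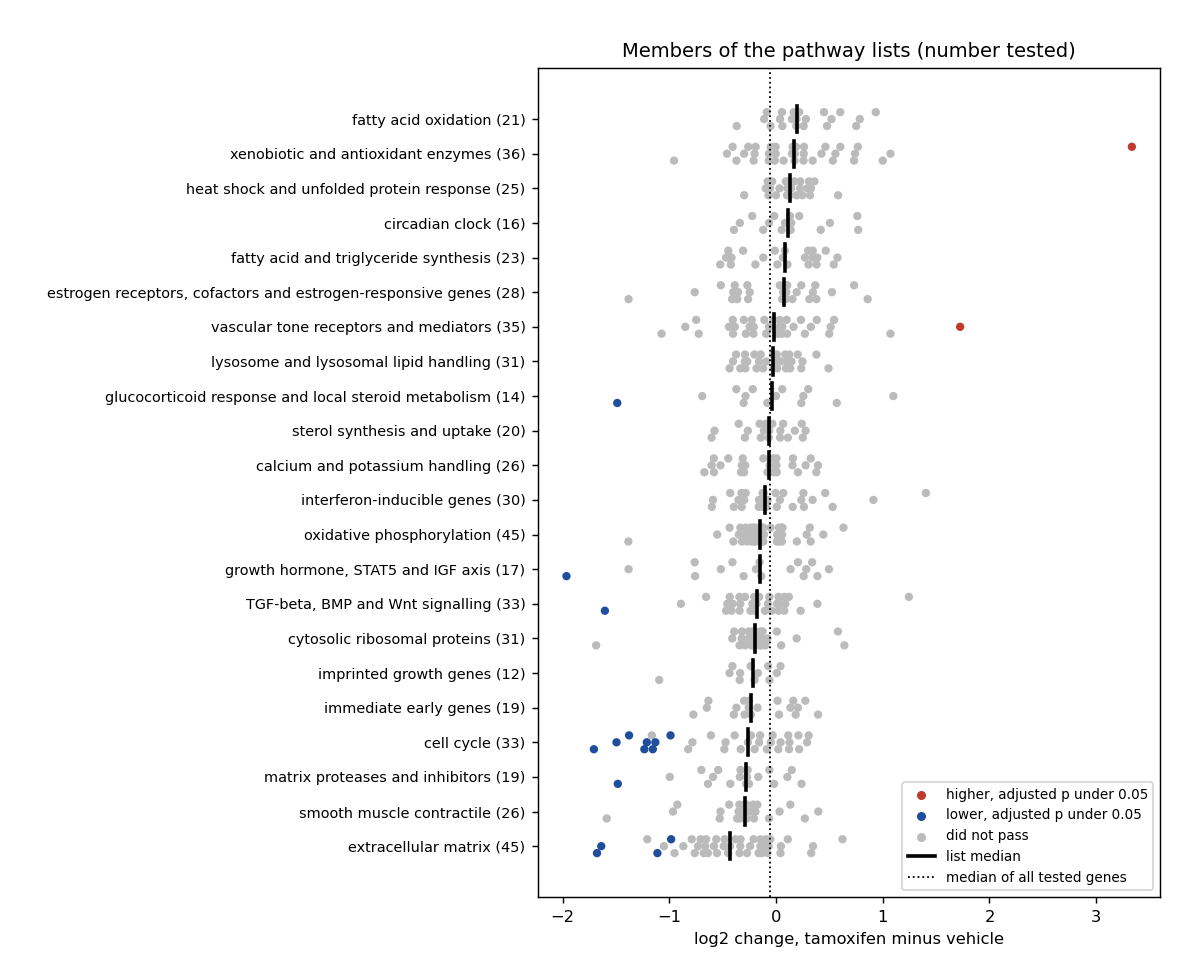
Log2 change, tamoxifen minus vehicle, of each tested member of the 22 pathway lists, with the median of each list (bar) and of all 10191 tested genes (dotted line). Lower genes that passed (blue) lie mainly in the cell cycle and extracellular matrix lists. Of the 2 higher ones (red), Cyp2e1 is in the xenobiotic list and Ntsr1 in the vascular tone list.

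Estrogen receptors themselves did not pass, and Esr1 was dim. Esr1 read 0.508 to 0.886 with vehicle and 0.466 to 0.563 with tamoxifen (-0.26 ± 0.19), and Esr2 1.30 to 1.82 and 1.49 to 1.76 (0.09 ± 0.13). The membrane receptor Gper1 was at 0.10 ± 0.25 and the progesterone receptor Pgr, a common estrogen target, at 0.24 ± 0.15. Of 28 receptors, cofactors and estrogen-responsive genes, 0 passed in limma's test, while 3 higher and 4 lower had an unadjusted p under 0.05, beside 3.43% and 6.18% of all tested genes. Hsd17b2, which oxidises estradiol to estrone, read 0.115 to 0.282 with vehicle and 0.364 to 0.520 with tamoxifen without passing (0.73 ± 0.18; adjusted p = 0.139). The full palindromic estrogen response element, searched on both strands, was in none of the windows of the 4 higher and 20 lower genes that had one, and in 6 of all 27457 promoters (0.0219%). An element that rare would be missing from so few windows in any case, so nothing is read from its absence.

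Genes of sterol synthesis, where tamoxifen's target Ebp acts, did not pass either. Ebp was at 0.04 ± 0.25 with groups that overlapped, and the isomerase Idi1 was at -0.60 ± 0.25, or 0.09 ± 0.25 on a dim probe. Of the 20 members, 0 passed. In limma's test 2 had a lower value with an unadjusted p under 0.05, beside 6.18% of all tested genes. Of 36 tested enzymes of foreign compound and antioxidant metabolism, Cyp2e1 was the 1 that passed. The carbonyl reductase Cbr1 read 22.6 to 33.5 with vehicle and 33.0 to 68.9 with tamoxifen (1.07 ± 0.22; adjusted p = 0.0549). The flavin monooxygenase Fmo2 was at 1.31 ± 0.28 (adjusted p = 0.0699), from 8.58 to 14.6 with vehicle to 20.4 to 33.3 with tamoxifen. Aldh1a1, a retinaldehyde dehydrogenase, lay lower at -0.96 ± 0.27. Of 21 fatty acid oxidation genes, 17 had values above 0, as had 4342 of all 10191 tested genes. In limma's test 0 passed, and 2 higher and 1 lower had an unadjusted p under 0.05, beside 3.43% and 6.18% of all tested genes. Their median was 0.19, and 0.32 after quantile normalisation.

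The contractile and vasoactive genes of the artery wall held 1 call, Ntsr1. Of 35 receptors and mediators of vascular tone, 1 passed. Ramp3, a partner of the receptors for adrenomedullin, read 0.593 to 1.26 with vehicle and 1.33 to 2.48 with tamoxifen (1.07 ± 0.24; limma adjusted p = 0.08). The endothelial nitric oxide synthase Nos3 was at -0.23 ± 0.24, and the VEGF receptor Kdr at 0.80 ± 0.17 (adjusted p = 0.0676). Of 26 contractile smooth muscle genes, 0 passed. In limma's test 4 of them were lower with an unadjusted p under 0.05, beside 6.18% of all tested genes. Their median was -0.29, beside -0.05 over all tested genes, and -0.12 after quantile normalisation. Values were below 0 for 22 of the 26 and for 5849 of the 10191. Tagln read 229 to 293 with vehicle and 174 to 225 with tamoxifen (-0.44 ± 0.19), and Tpm1 was at -0.34 ± 0.13. Myh11, smooth muscle myosin, was at -0.34 ± 0.25 and lay at 0.01 after quantile normalisation. A second Myh11 probe was at 0.33 ± 0.27.

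Cell type markers were read as a check of the labelled tissue. Arterial smooth muscle markers were bright, and the sum of 6 of them was 670 to 860 on vehicle and 479 to 644 on tamoxifen arrays. These sums did not overlap, but the mean centred log2 values of the 6 did, at 4.72 to 5.06 with vehicle and 3.49 to 4.81 with tamoxifen. That mean gives all 6 probes equal weight, Acta2 included. The same mean over the 26 contractile genes did not overlap, at 4.87 to 4.98 with vehicle and 4.27 to 4.79 with tamoxifen. None of the 6 passed. The probe for Acta2, the classic smooth muscle actin, was dim (0.333 to 1.11 with vehicle), so the tissue was judged on Myh11, Tagln and Cnn1 instead. Endothelial markers summed to 367 to 433 and 352 to 441, and the endothelial Pecam1 lay at -0.02 ± 0.19, or 0.42 ± 0.65 on a dimmer probe. The arteries had been dissected free of fat per the labels, but adipocyte genes were read well above the array median in both groups, with Adipoq at 72.2 to 111 on vehicle and 79.8 to 98.4 on tamoxifen arrays. Pancreatic acinar markers varied most, from 12.7 to 188 on vehicle and 36.2 to 232 on tamoxifen arrays. All 13 of them had values above 0 (median 1.67), as had 4342 of all 10191 tested genes, and none passed. Macrophage and dendritic cell markers summed to 533 to 810 and 475 to 604 over 16 genes.

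**Figure D3:**
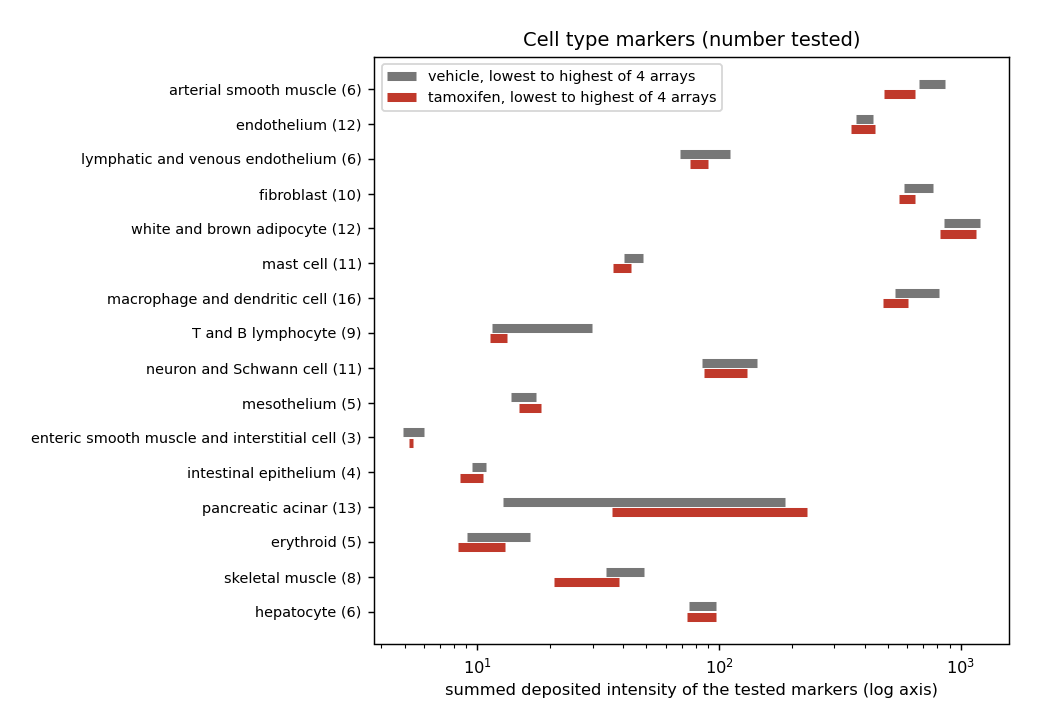
Summed deposited intensity (log axis) of the tested markers of 16 cell types, drawn from the lowest to the highest of the 4 vehicle arrays (grey) and the 4 tamoxifen arrays (red). The sums are apart for arterial smooth muscle, 670 to 860 against 479 to 644, and overlap for adipocytes, endothelium and fibroblasts. On the centred log2 scale the means of the 6 arterial smooth muscle markers overlap, whereas those of the 26 contractile genes do not.

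Raloxifene is a benzothiophene and shares with tamoxifen a basic aminoalkoxyphenyl side chain but not the triphenylethylene core. It was the 1 drug compared with tamoxifen here, at the same dose, with limma p-values adjusted over all 24562 probes. Directly compared, 1 probe passed (0.00407% of all probes and 0.00751% of those with 1 symbol, higher), while 3291 had an unadjusted p under 0.05 (13.4%). Without raloxifene array 3, these numbers were 0 and 842. The probe was 1 of 2 tested for Armc5, an armadillo-repeat protein that acts as an adaptor of a ubiquitin ligase. It read 9.28, 7.19, 9.53 and 7.80 with tamoxifen, 1.93, 2.95 and 1.22 with raloxifene and 8.47, 9.04, 11.1 and 13.3 with vehicle. The raloxifene arrays stood apart and the tamoxifen values lay within or just below those of vehicle. The difference was 2.07 (95% interval 1.45 to 2.69; limma adjusted p = 0.0391). The second Armc5 probe was at 0.77 ± 0.21 and did not pass (adjusted p = 0.348). The call was lost when any single tamoxifen array, or raloxifene array 1 or 3, was left out.

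None of the 40 probes that differed from vehicle passed against raloxifene, where the smallest adjusted p was 0.348. The 95% interval of the difference included 0 at 19 of them and excluded it at 21, at each of which tamoxifen lay farther from vehicle. These probes had been chosen on the same 4 tamoxifen arrays, so nothing is read from that count. For Col1a1 the raloxifene arrays read 35.1, 29.4 and 18.7 on probe 213041. The lowest of them came from raloxifene array 3. Tamoxifen minus raloxifene was -0.01 with an interval of -0.55 to 0.52, which leaves room for a difference of either sign. On Col1a1 probe 133047 the raloxifene arrays read 9.45, 13.1 and 11.9, and the difference was -0.40 (-0.80 to -0.0016). For Mki67 the raloxifene values were 0.540, 1.28 and 0.366, and the difference was 0.11 (-0.52 to 0.74).

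Some genes lay between vehicle and tamoxifen on the raloxifene arrays. Ntsr1 read 1.22, 1.59 and 1.38 with raloxifene, above every vehicle value and below every tamoxifen value, and the difference of the drugs was 0.97 (0.56 to 1.38). Cyp2e1 read 5.97, 3.71 and 7.97 on probe 189092 (difference 1.46, interval 0.32 to 2.59), also between the groups. So did Bcl6, at 2.55, 2.77 and 1.98 on probe 88065 (0.64, interval 0.04 to 1.23). Cish read 8.22, 4.49 and 3.61, overlapping the vehicle rats, with a difference of -1.40 (-2.28 to -0.51). Tnc read 2.71, 3.59 and 7.09 on probe 252075, where raloxifene array 3 lay among the vehicle values (-1.21, interval -1.92 to -0.50). None of these differences passed after adjustment over all probes, which does not show that the drugs acted alike.

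**Figure D4:**
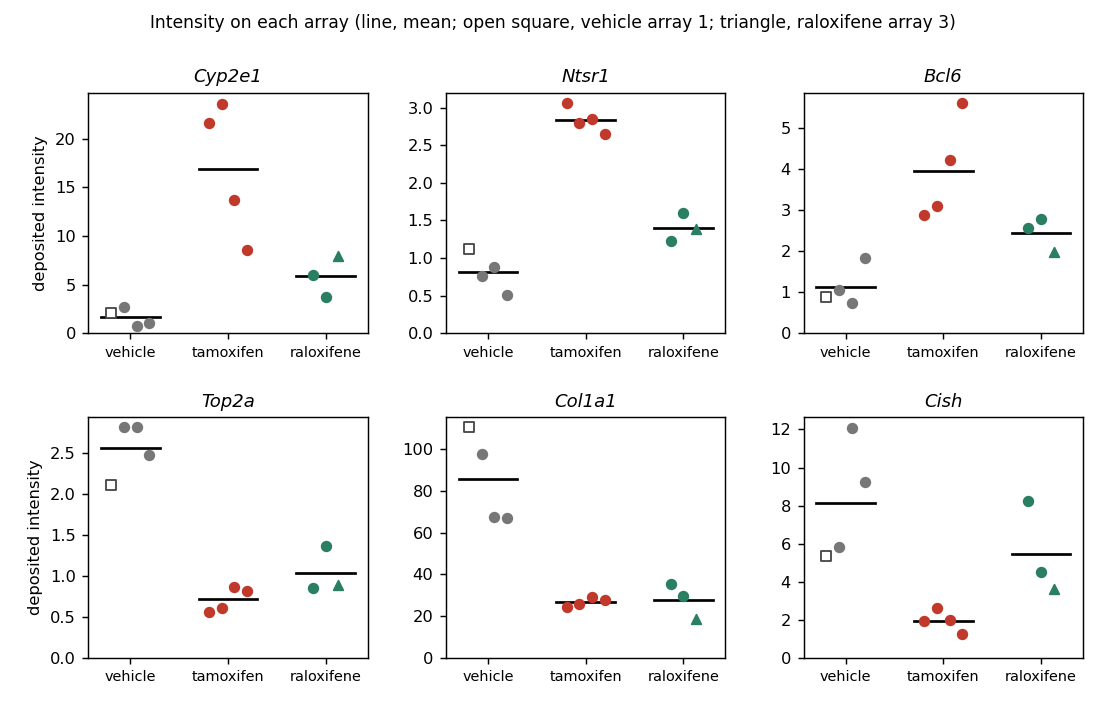
Deposited intensity of Cyp2e1 (probe 189092), Ntsr1, Bcl6, Top2a, Col1a1 (probe 213041) and Cish on each vehicle, tamoxifen and raloxifene array, with the group mean as a line. Raloxifene arrays lie between the other groups for Cyp2e1, Ntsr1 and Bcl6, near tamoxifen for Col1a1 on this probe and partly within the vehicle range for Cish.

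**Figure D5:**
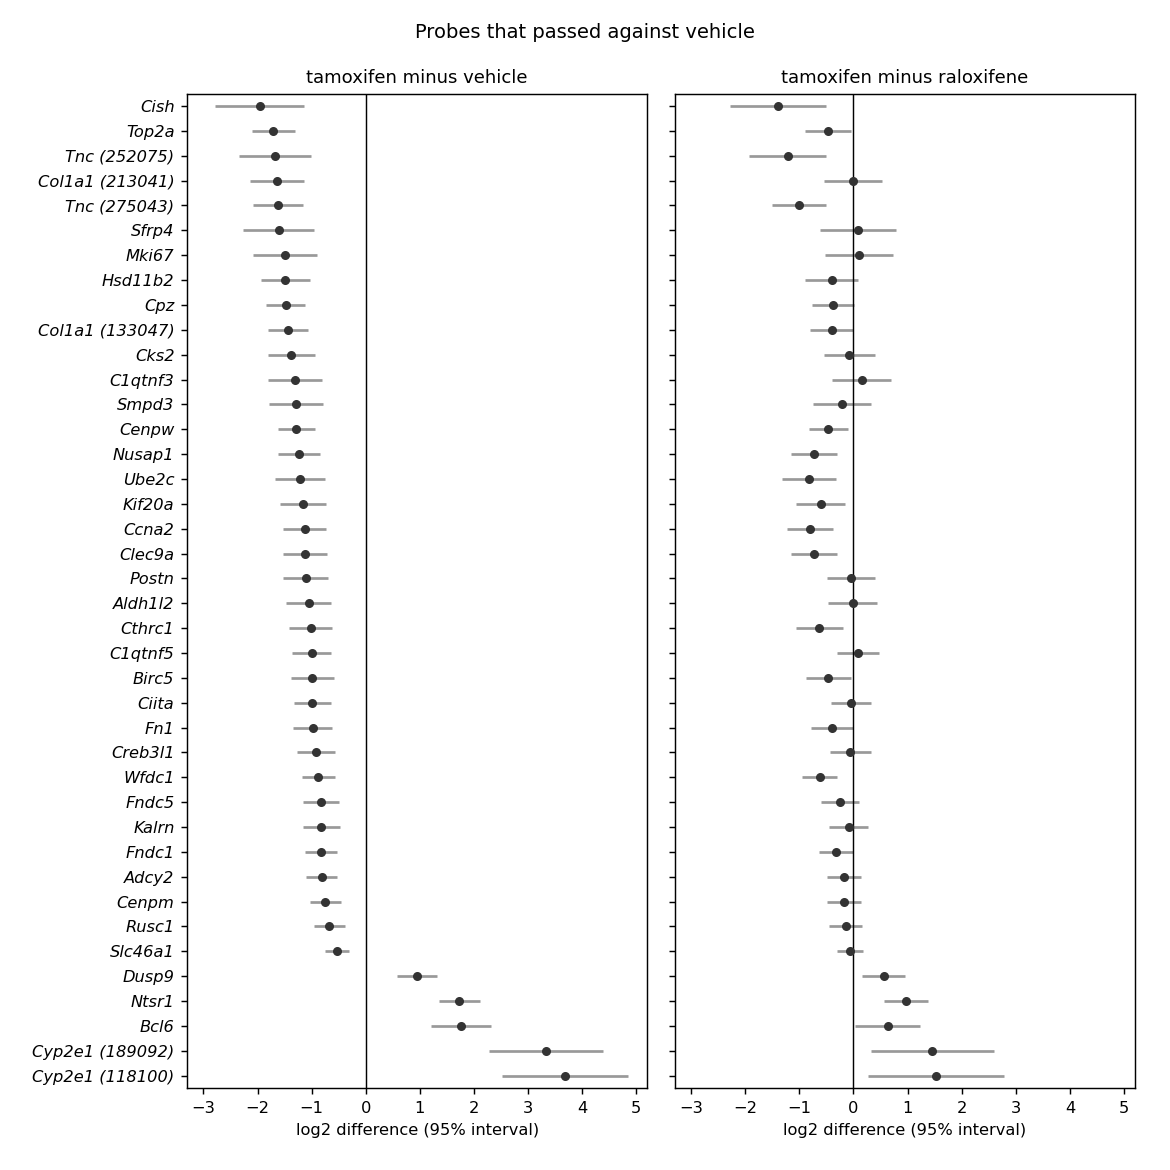
Log2 differences with 95% intervals for the 40 probes that passed against vehicle, as tamoxifen minus vehicle (left) and tamoxifen minus raloxifene (right). The right-hand intervals include 0 for 19 probes, among them Col1a1 probe 213041 (-0.55 to 0.52), whereas that of Col1a1 probe 133047 is -0.80 to -0.0016.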

How the data were processed

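Total RNA of mesenteric arteries, 1 rat per array, was hybridised to single-colour CodeLink rat arrays. Per the labels' protocols and design text, the authors scanned the slides with GenePix software and used CodeLink, Acuity and GeneSpring programs. Not given in the sources used here are the program behind the values and the background method. Each deposited value is a linear intensity with array medians from 1.0007 to 1.0612, and no detection flag was used. Negative values were raised to 0. After adding 0.103 (the table median times 0.1), values were taken to log2 and centred by array. After leaving out 40 probes with missing values and the lowest 30% by mean, 24562 probes were tested. Of 35129 probes, 16865 had 1 gene symbol, 165 several and 18099 none.

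Group means of all 6 groups were fitted with limma 3.58.1 in R 4.3.3 (lmFit, eBayes with a variance trend), with Benjamini-Hochberg adjustment over all tested probes and a threshold of 0.05. For the comparison with vehicle arrays 2 to 4, vehicle array 1 had its own mean. The code was tested on simulated data. Genes were drawn from the 12 highest and 12 lowest that passed with groups that did not overlap, filled up by smallest p where fewer. Further sources were up to 4 genes per pathway list, 2 per cell type list and 5 each way against raloxifene. A fixed set of receptors and vessel markers was added. Not all genes so drawn are described above. Left out were, among others, the mast cell genes Mcpt1 and Mcpt10. Also left out were Arsk, Akr1c15, Bin2a, Tdo2 and Pus7, which had higher values without passing (limma adjusted p = 0.0604 to 0.0783). Lists used 1 probe per gene, the one brightest over all arrays. Other list members without a call were named after their values were seen. The members and lists were chosen with earlier results of these data known. The 960 list entries matched a probe for 799 and a tested probe for 722. Alternatives covered normalisation, offset, filter, variance, array weights, samples fitted and single arrays left out. The number of arrays limits the precision.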

Additional observations from a re-analysis of the deposited data

Results flagged for a closer look

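In each of 160 groups of 4 arrays, the gap between the highest or lowest array and its neighbour was set against the whole range of the group; chance alone passes Dixon's critical value in about 1 of 20 groups, and 4 of the 160 did. Tamoxifen array 3 was the highest for Postn, at 6 on the centred log2 scale against 5.45 to 5.54 in the others (gap 0.85 of the range). Tamoxifen array 4 was the lowest for Tnc probe 275043, at -0.709 against -0.166 to -0.118 (0.919). Vehicle array 3 was the highest for the mean of the xenobiotic and antioxidant enzymes, at 2.66 against 2.54 to 2.56 (0.833), and for that of the neuron and Schwann cell markers, at 1.92 against 1.73 to 1.76 (0.842).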

How the results depend on the processing

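Counts of probes that passed depended on the setting, while no probe of the 40 with a symbol changed direction under any of the 23. Settings that only left out arrays could not reverse these directions, since the groups did not overlap. Against all vehicle arrays the main count of 55 became 31 with the lowest 60% left out, 34 with only the compared groups, 26 with vehicle arrays 2 to 4, 449 with array weights, 166 without raloxifene array 3 and 95 without it against vehicle arrays 2 to 4. Leaving out one vehicle or tamoxifen array gave 18 to 120. After quantile normalisation 14 higher and 35 lower probes passed, beside 9 and 46. Against vehicle arrays 2 to 4 the count of 26 became 40 with the offset at 0.5 times the median, 9 with the lowest 60% left out, 1323 with array weights, 16 with only the compared groups and 95 without raloxifene array 3. Leaving out one vehicle or tamoxifen array gave 10 to 45 there. Against raloxifene the count of 1 became 1581 with array weights, 0 with only the compared groups, and 0 to 224 on leaving out one array. The causes were not tested.

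Replicate numbers did not pair the animals: same-numbered vehicle and tamoxifen arrays deviated from their group means with correlations of 0.247, 0.328, 0.0408 and -0.204, and 1 of the 4 correlated best with its own number. With the replicate number as a block, 46 probes passed against vehicle, 13 against vehicle arrays 2 to 4 and 1 against raloxifene, a different probe from Armc5.

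Values that changed sign belonged to genes without a call. After quantile normalisation Adipoq lay at 0.15, Myh11 at 0.014 and Pecam1 at 0.079. Pecam1 lay at 0.069 against vehicle arrays 2 to 4, also without raloxifene array 3. On leaving out one array, Adipoq ranged from -0.21 to 0.00070, Ebp from -0.13 to 0.30, Gper1 from -0.021 to 0.27 and Pecam1 from -0.090 to 0.069. Dim probes, which include 20 of the 40, are the least certain, since offset and background act most on them.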
